A study of Mus musculus with 2 samples.

Results

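The endothelial cells described here were 58 of 3261 kidney cell barcodes, 27 of 1767 in the library labelled vehicle and 31 of 1494 in the library labelled CA3. Barcodes were kept with at least 500 detected genes and at most 50% of their UMIs (unique molecular identifiers, 1 per captured RNA molecule) from genes encoded in mitochondria. A kept barcode was taken as endothelial where Emcn, Kdr, Flt1, Egfl7, Ptprb, Pecam1 and Cdh5 summed to at least 15 UMIs per 10000 non-mitochondrial UMIs. Further ceilings on the same scale removed mixed barcodes. Rgs5, Myl9 and Des, genes of pericytes and mesangial cells, had to sum to under 3, the proximal tubule genes Slc34a1 and Lrp2 to under 25, and Slc12a1, the salt transporter of the thick ascending limb, had to stay under 5. The cells were thus chosen by the measured values of these genes, which are given as a description only.

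Both libraries came from whole kidneys of female C57Bl/6 mice aged 9 weeks with the genotype Pax8.rtTA;TetO.Cre;R26.FUCCI2aR, so the alleles were shared by both groups. Rhabdomyolysis, muscle breakdown that injures the kidney, was induced in both groups, which then received vehicle or CA3, a compound that inhibits the transcriptional coactivator YAP1. The Pax8 promoter drives the inducible Cre in the epithelium of the nephron and collecting duct and not in endothelium, so the cell-cycle reporter of these mice belongs to the tubule. Cells were captured with a droplet 3' method and counted per gene. Each group was 1 library. How many animals went into each library, the dose and the time after injury were not given in the labels used, and neither library was uninjured. A ratio between the libraries therefore has no replicate check, no p-value was computed, and every 95% interval given here covers counting error only.

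Renal endothelium lines vessels with different tasks. Glomerular capillaries are fenestrated and filter plasma under the control of VEGF from podocytes, which acts through Kdr. Peritubular capillaries carry diaphragms built from Plvap across their fenestrae and take up what the tubules reabsorb, and the descending vasa recta carry blood into the medulla and express the urea transporter Slc14a1 and the water channel Aqp1. YAP1 and its paralogue TAZ (Wwtr1) are the coactivators of the Hippo pathway and drive TEAD-dependent genes such as Ctgf and Cyr61. In endothelium they are known for responses to stretch, flow and VEGF.

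The gate left few cells with uneven depth. Vehicle cells held 237257 non-mitochondrial UMIs and CA3 cells 229879, with a median per cell of 5483 (2577 to 47695) and 5147 (3267 to 34991). The deepest cell alone gave 20.1% of the vehicle UMIs and 15.2% of the CA3 UMIs, so sums over cells lean on a few barcodes. Cells had a median of 2477 and 2406 detected genes. Mitochondrial genes made up a median of 5.09% and 5.03% of UMIs, against 17.5% and 17.7% over all kept barcodes. Over all deposited barcodes the libraries shared 1 barcode sequence, which was not among the endothelial cells. Vehicle cells 2 and 3 by depth, with 17624 and 17133 UMIs, were unusually alike. Their counts over 655 genes differed by a chi-square of 1.23 per degree of freedom, against a median of 4.28 over 182 vehicle pairs and 1.99 for the closest CA3 pair. Their barcodes differed at 14 letters. Both carried much tubule RNA, and counts are also given with 1 of them left out.

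The name "free of tubule RNA" held for most of the cells but not for all. A list of proximal tubule markers had a median of 13.1 UMIs per 10000 in vehicle and 12.8 in CA3 endothelial cells, against 492 and 521 in barcodes rich in Slc34a1 and Lrp2. Yet it reached 233 in 1 vehicle cell and 254 in 1 CA3 cell. Distal markers reached 127 in CA3 cell 1 by depth, which held all 278 CA3 UMIs of Aqp2, the collecting duct water channel, together with 55 Plvap UMIs. In all, 7 vehicle and 6 CA3 barcodes had proximal or distal markers at 50 per 10000 or more, and they held 27.1% and 35.6% of the UMIs. The comparison of CA3 with vehicle is therefore also given for the remaining 20 vehicle and 25 CA3 cells, called the tubule-poor cells here. Tubule RNA in these barcodes, from free RNA or from cells captured together, was not separated, and its part in any other result was not tested.

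**Figure D1:**
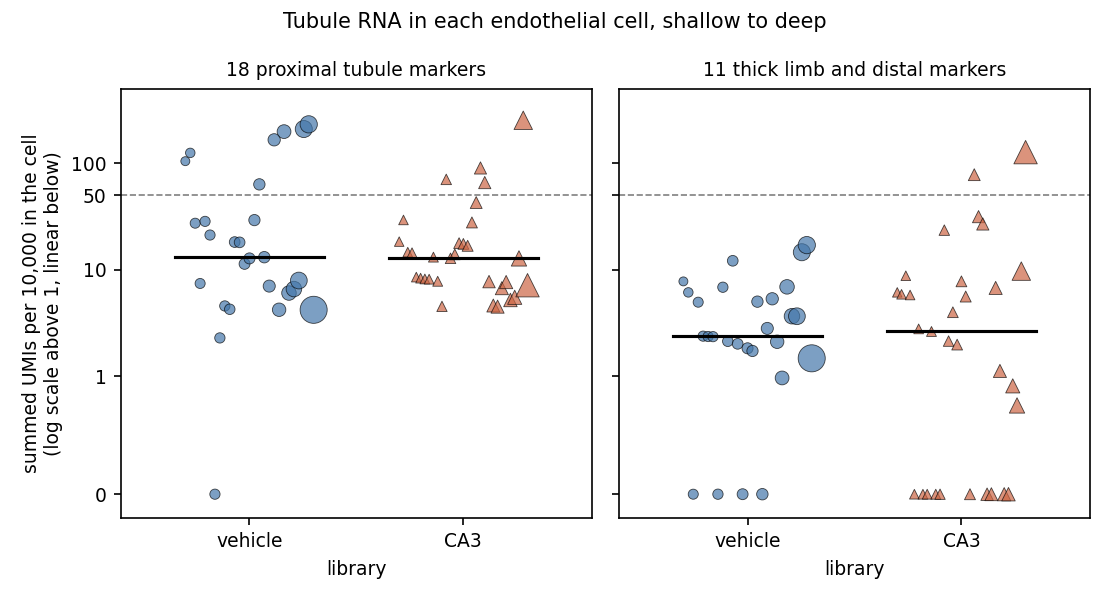
Proximal tubule and distal nephron marker UMIs per 10000 non-mitochondrial UMIs in each endothelial cell, by library (points are cells, vertical axis logarithmic). Most cells lie near the medians of 13.1 and 12.8, and 7 vehicle and 6 CA3 cells lie at 50 or above for either list.

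The endothelial identity of the cells stood on genes that the gate did not use. All 22 genes of an endothelial identity list, among them the angiopoietin receptor Tek, the junction protein Cldn5 and the transcription factors Erg and Sox17, had UMIs in both libraries. Together they made up 10027 UMIs per 1000000 non-mitochondrial UMIs (CPM) in vehicle and 9274 CPM in CA3 endothelial cells, against 22.3 and 20.7 CPM in barcodes rich in proximal tubule genes. Of the mural cell markers, Acta2, Cspg4, Ren1, Tpm2 and Rgs4 were at 0 in both libraries. The mural list summed to 202 vehicle and 158 CA3 UMIs, most of them from Cald1. Leukocyte markers had 7 and 12 UMIs, with Cd3e, Cd79a and Nkg7 at 0 in both libraries. Erythroid markers had 8 and 6 UMIs, and of 8 fibroblast markers only Gsn was detected. Podocyte markers summed to 4.43 and 1.70 UMIs per 10000. The lymphatic genes Lyve1, Mmrn1 and Reln and the venous gene Ackr1 were at 0 in both libraries. Other members of these lists had UMIs. The venous list of 6 summed to 98 vehicle and 92 CA3 UMIs, and the lymphatic list to 33 and 30.

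The endothelial sum of the gate had a gap around its limit of 15. Just inside it, the lowest sums were 54.1 per 10000 in vehicle and 19.9 in CA3, and just outside it the highest were 5.89 and 10.4. The medians were 132 and 131. Of the ceilings, Slc12a1 alone had values close to its limit on the outside. The highest tubule sums inside were 19.4 and 22.8 and the lowest outside 43.0 and 47.0, and the Slc12a1 values were 3.50 and 2.13 inside against 5.15 and 5.17 outside. The pericyte sum reached 1.33 and 1.12 inside, with 6.99 the lowest outside in vehicle and no CA3 barcode outside. Of 41 vehicle and 40 CA3 barcodes that reached the endothelial sum, the ceilings removed 14 and 9. Among the gate genes, the sialomucin Emcn had a median of 30.1 per 10000 in vehicle (4.31 to 92.9) and 31.7 in CA3 (5.59 to 108). The VEGF receptor Flt1 had 18.2 (4.31 to 35.6) and 18.5 (2.42 to 62.7). Per-cell ranges of these markers overlapped almost wholly between the libraries.

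Endothelial cells were 1.53% of kept vehicle barcodes (exact Clopper-Pearson interval 1.01 to 2.22) and 2.07% of kept CA3 barcodes (1.41 to 2.93). The ratio of the shares was 1.36, with an interval of 0.784 to 2.36 that holds 1. No difference in the share of endothelial cells was detectable at this depth.

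Ehd3, which encodes a membrane-recycling protein known for glomerular endothelium (GRCm38, chr17:73804134-73832094, plus strand), and Plvap, the diaphragm protein (chr8:71497765-71511752, minus strand), split most of the cells. Cells with Ehd3 UMIs and no Plvap UMI, the Ehd3-only cells, were 13 of 27 in vehicle (48.1%, interval 28.7 to 68.1) and 12 of 31 in CA3 (38.7%, 21.9 to 57.8). Plvap-only cells were 6 of 27 (22.2%, 8.62 to 42.3) and 7 of 31 (22.6%, 9.59 to 41.1). A further 7 vehicle and 11 CA3 cells had UMIs of both genes, and 1 cell in each library had neither. In the cells with both, the scarcer gene had at most 3 UMIs in 6 of the 7 and 8 of the 11. The other gene could be low as well, with 2 Ehd3 and 4 Plvap UMIs in vehicle cell 25 by depth and 1 and 2 in CA3 cell 2.

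**Figure D2:**
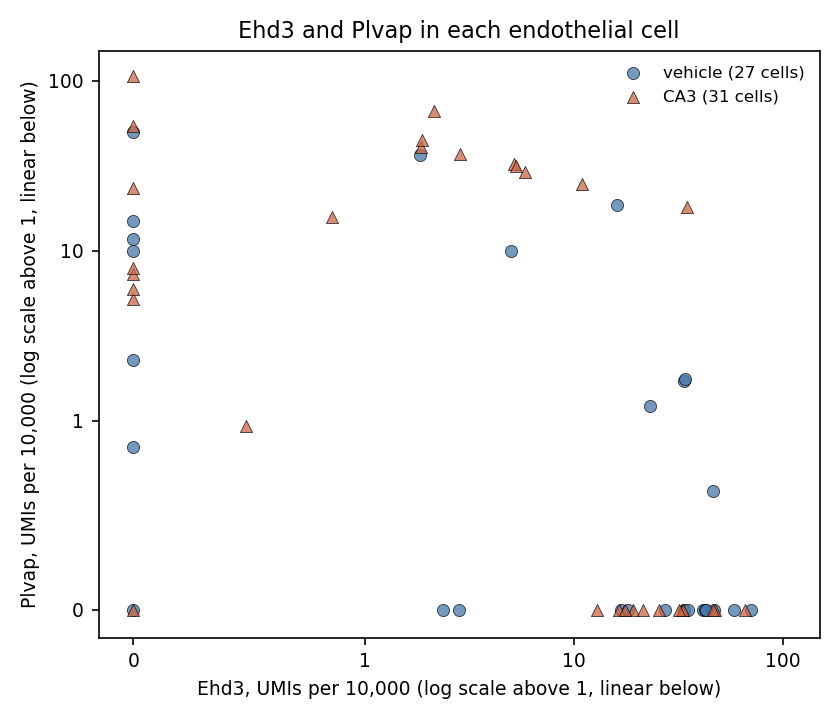
Plvap against Ehd3 in each endothelial cell, in UMIs per 10000 non-mitochondrial UMIs, by library (points are cells). Most cells lie near 1 of the axes, with 17 vehicle and 13 CA3 cells having more Ehd3 and 9 and 17 having more Plvap.

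Assigned by the gene with more UMIs, 17 vehicle and 13 CA3 cells had more Ehd3, and 9 and 17 had more Plvap. Cells with more Ehd3 held 71.7% of endothelial UMIs in vehicle and 34.4% in CA3, and cells with more Plvap held 25.7% and 61.7%. CA3 cells 1 and 2 by depth gave 34991 and 20623 of the 141757 CA3 UMIs in cells with more Plvap. Both are rich in tubule or distal RNA, with endothelial sums of 27.4 and 19.9 per 10000, so sums over that set lean on them. Among the tubule-poor cells, those with more Ehd3 held 69.0% and 35.8% of UMIs, and those with more Plvap 27.4% and 58.2%. This mix touches every sum over all endothelial cells, and a different mix of cells and a different amount of RNA per cell cannot be told apart in such a sum. At an equal depth of 2000 UMIs per cell, with no cell left out, Ehd3 was detected in 66.7% of vehicle and 64.5% of CA3 cells. Plvap was then detected in 25.9% (11.1 to 46.3) and 54.8% (36.0 to 72.7), with intervals that overlap. Without thinning the shares were 74.1% and 74.2% for Ehd3 and 48.1% and 58.1% for Plvap. In barcodes rich in proximal tubule genes, with median depths of 5729 and 5941 UMIs, Ehd3 was detected in 1.39% and 0.82% and Plvap in 0.22% and 0.36%, far below every endothelial share.

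Many genes differed between Ehd3-only and Plvap-only cells in the same direction in both libraries. Genes at least as abundant in endothelial as in all other barcodes are called endothelial-own here. Those with at least 20 UMIs over the Ehd3-only and Plvap-only cells numbered 1767, with Ehd3 and Plvap left out. Of these, 99 were at least 2 times higher in Ehd3-only cells in both libraries, 5.6% of those tested. In the opposite direction 94 were at least 2 times higher in Plvap-only cells in both, 5.32%. In 1 library alone the counts were 272 (15.4%) for vehicle and 307 (17.4%) for CA3 for Ehd3-only cells, and 245 (13.9%) and 299 (16.9%) for Plvap-only cells. The shared genes were thus 36.4% of the vehicle and 32.2% of the CA3 genes for Ehd3-only cells, and 38.4% and 31.4% for Plvap-only cells. Opposite directions were found for 17 genes of the vehicle Ehd3-only set and 24 of the vehicle Plvap-only set.

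Among the genes of Ehd3-only cells, Cyp4b1, a cytochrome P450 of fatty acid hydroxylation, had 80 UMIs against 1 in Plvap-only cells of the vehicle library and 100 against 0 in CA3, at least 23.7-fold higher in the latter when a zero is set to a floor of 3 UMIs. Lpl, the lipoprotein lipase, had 39 against 0 and 73 against 0, at least 8.01-fold and 17.3-fold higher. The receptor of leukaemia inhibitory factor, Lifr, had 71 against 5 and 70 against 7. Coagulation factor VIII, F8, had 45 against 3 and 51 against 6, and the laminin-related guidance protein Ntn4 had 28 against 3 and 46 against 4. These genes had 0 to 7 UMIs in Plvap-only cells of either library, at most 150 CPM (Lifr in CA3). The other genes named by the same rule, Bicd2, Ubn1, Casp8, Emilin1 and Bad, rested on 7 to 15 UMIs in Ehd3-only cells and 1 or 2 in Plvap-only cells.

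Genes of Plvap-only cells included those of the descending vasa recta and of capillaries, with few cells behind several of them. Slc14a1 had 44 UMIs against 0 in Ehd3-only cells of the vehicle library and 58 against 0 in CA3, at least 23.8-fold and 27.2-fold higher. Aqp1 had 34 against 9 and 140 against 1. The calcium-binding protein S100a4 had 18 against 1 in both libraries, the tetraspanin Tspan8 62 against 12 and 49 against 4, and Igfbp3, a binding protein of insulin-like growth factors, 38 against 10 and 48 against 0. The homeobox genes Irx3 (12 against 2 and 12 against 0) and Irx5 (6 against 1 and 14 against 0) were higher together, as were Vim, the intermediate filament of many non-epithelial cells (88 against 29 and 25 against 4), Plac8 (16 against 5 and 20 against 1) and Calca, the precursor of calcitonin and CGRP (9 against 0 and 19 against 0). A few cells carried the vasa recta genes. Slc14a1 was detected in 3 vehicle cells with 40, 9 and 4 UMIs and 3 CA3 cells with 58, 2 and 1, and the CA3 cell with 58 also held 140 Aqp1 UMIs. Of the 34 vehicle Aqp1 UMIs in Plvap-only cells, 21 were in vehicle cell 12 by depth, which is rich in tubule RNA. The Plvap-only cells are therefore called by their rule here and not peritubular cells.

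**Figure D3:**
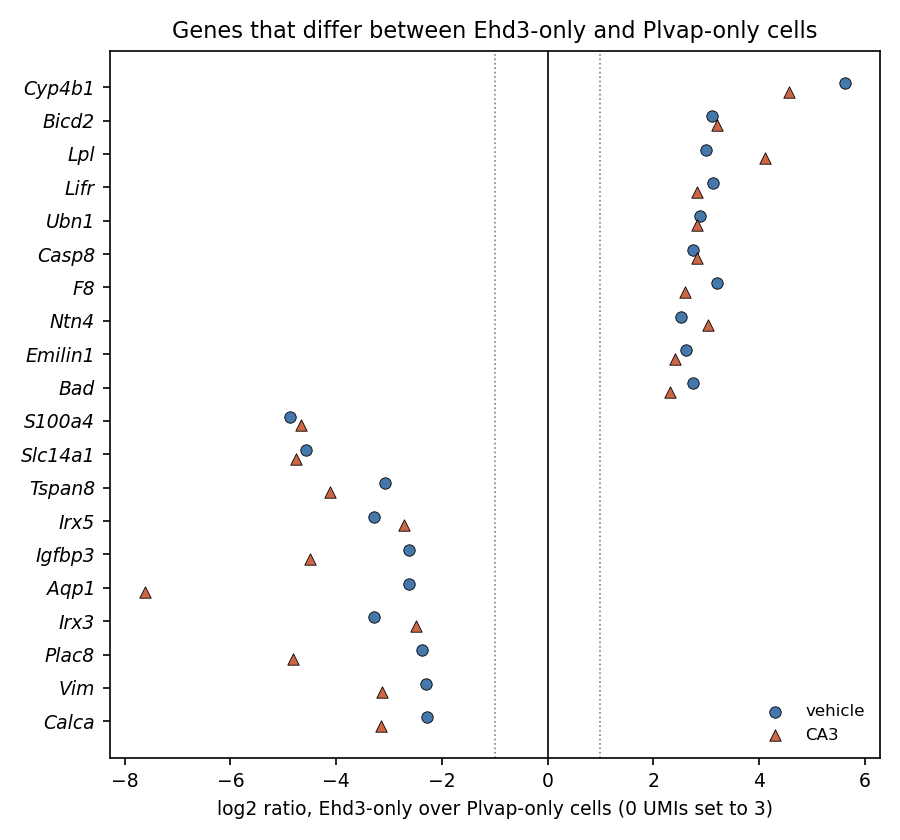
The 20 genes named for Ehd3-only and Plvap-only cells, as the log2 ratio of CPM in Ehd3-only over Plvap-only cells in the vehicle and CA3 libraries (points, horizontal axis log2). All lie on the same side of 0 in both libraries, by the rule that named them.

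Genes of glomerular endothelium were higher in Ehd3-only cells. Of 9 measured members of the glomerular list other than Ehd3, 8 were at least 2 times higher in Ehd3-only cells in both libraries (Plat, Lpl, Pi16, Tbx3, Gata5, Smad6, Mapt and Prdm1). The list's median log2 ratio was 2.11 in vehicle and 2.31 in CA3, against 0.04 and -0.01 over all genes. Plat, the tissue plasminogen activator, had 271 UMIs in Ehd3-only against 59 in Plvap-only vehicle cells and 237 against 17 in CA3. Pi16 had 71 against 2 and 65 against 13, and the T-box factor Tbx3 had 23 against 2 and 33 against 8. The VEGF receptor Kdr, a gate gene, had 190 against 36 and 228 against 28, and its co-receptor Nrp1 had 250 against 25 and 233 against 40.

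Lists of other vessels were mixed. Of 8 measured peritubular genes other than Plvap, 3 were higher in Plvap-only cells in both libraries (Igfbp3, Ifi27l2a and the fatty acid-binding protein Fabp4), and 1 was higher in Ehd3-only cells (Cd300lg, 62 against 11 and 73 against 11 UMIs). Of 5 vasa recta genes, 3 were higher in Plvap-only cells (Slc14a1, Aqp1 and Scin). The arterial factor Sox17 had 37 UMIs in Plvap-only against 25 in Ehd3-only vehicle cells and 39 against 4 in CA3, and Efnb2 went the other way (9 against 46 and 11 against 60). Interferon-response genes leaned to Plvap-only cells. Of 19, 7 were at least 2 times higher there in both libraries and none in Ehd3-only cells (Ifit1, Ifit3, Isg15, Irf7, Ly6a, Rsad2 and Xaf1), with medians of -0.87 and -1.34. The antiviral gene Rsad2 had 60 UMIs against 28 in vehicle and 50 against 18 in CA3.

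Igfbp3, a gene of Plvap-only cells that was also higher in the CA3 library, and Edn1, the vasoconstrictor endothelin-1, which was lower there, are shown with the 250 bases before their RefSeq starts in GRCm38.p6, as 1 secreted factor from each direction, since ETS and TEAD factors are the usual regulators of endothelial and YAP1-dependent genes. Capitals mark GGAA or TTCC, the core of ETS sites on either strand, and GGAATG or CATTCC, the TEAD element on either strand, whose letters overlap the ETS core.
Igfbp3 (chr11:7213924-7214173, minus strand): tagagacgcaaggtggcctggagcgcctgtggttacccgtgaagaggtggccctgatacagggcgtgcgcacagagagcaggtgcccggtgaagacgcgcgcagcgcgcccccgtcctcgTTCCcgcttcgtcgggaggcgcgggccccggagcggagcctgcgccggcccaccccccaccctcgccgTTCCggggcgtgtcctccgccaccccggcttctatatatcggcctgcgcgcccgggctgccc
Edn1 (chr13:42301226-42301475, plus strand): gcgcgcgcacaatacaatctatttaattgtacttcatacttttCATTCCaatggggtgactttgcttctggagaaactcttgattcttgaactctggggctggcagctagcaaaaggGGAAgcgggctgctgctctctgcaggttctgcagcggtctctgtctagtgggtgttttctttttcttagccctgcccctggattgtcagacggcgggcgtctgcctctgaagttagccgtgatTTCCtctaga
The Igfbp3 window held 2 ETS cores and no TEAD element, and the Edn1 window held 3 ETS cores, 1 of them inside its TEAD element. Over 32851 promoters of this length the ETS core stood in 93.4% and the TEAD element in 12.6%. Of the 12 endothelial-own genes named as higher in CA3, 8 had a promoter in the table and 1 held a TEAD element (Gstm2), and of the 12 named as lower 9 had one and 1 held it (Edn1). These are matches of letters in a window and no measure of binding.

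CA3 was then compared with vehicle over all endothelial cells. Of 3310 genes with at least 30 UMIs, 429 were at least 1.5 times higher in CA3 (13%) and 498 at least 1.5 times lower (15%). Among the 2412 endothelial-own genes, 231 were higher (9.58%) and 405 lower (16.8%). The balance depended on the total used for scaling: with the total of endothelial-own genes, 547 were higher and 382 lower, which moved the share of higher genes among the called from 46.3% to 58.9% and the median log2 ratio of all genes from -0.03 to 0.06. In the tubule-poor cells 268 of 2232 genes were higher (12%) and 326 lower (14.6%), and with 1 of the alike vehicle cells left out the counts over all cells were 406 and 467. The genes named next had to pass 1.5 times also without the 3 cells with most UMIs of the gene, a rule met by 76 higher and 185 lower endothelial-own genes.

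Npnt and Prss23 ranked highest among the higher genes by the interval bound nearest 1, followed by Plvap and Igfbp3, which had more UMIs. Plvap had 101 UMIs in 13 vehicle cells (426 CPM) and 338 in 18 CA3 cells (1470 CPM), a ratio of 3.45 (2.76 to 4.36), and 4.56 in the tubule-poor cells. Its highest vehicle cell had 49.8 UMIs per 10000 and its highest CA3 cell 107, with a median of 0 against 5.97. Both ranges start at 0, and most CA3 cells lie within the vehicle range. Within the cells with more Plvap than Ehd3 the ratio was 1.5 (1.18 to 1.92), a value that the split by Plvap itself bears on. Igfbp3 had 59 UMIs in 11 vehicle cells (249 CPM) and 210 in 14 CA3 cells (914 CPM), a ratio of 3.67 (2.74 to 4.99). It was 4.69 in the tubule-poor cells and 2.03 (1.43 to 2.94) in the cells with more Plvap, but 1.61 (0.768 to 3.31) with more Ehd3 and 1.19 (0.759 to 1.87) in Plvap-only cells. A CA3 cell held 43.8% of its CA3 UMIs.

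The higher genes Esm1, Rgcc, Emp1, Irx5 and Eml4 rested on fewer UMIs. Esm1, endocan, a secreted proteoglycan known to be induced by VEGF, had 19 vehicle and 55 CA3 UMIs (2.99, 1.75 to 5.33), with 3.09 in the tubule-poor cells and 5.37 (2.67 to 11.5) in the cells with more Ehd3, but 1.47 (0.616 to 4.05) in those with more Plvap. Rgcc, a regulator of the cell cycle, had 42 and 101 (2.48, 1.72 to 3.65), with 3.01 in the tubule-poor cells. Within the cells with more Ehd3 and those with more Plvap it was 1.64 (0.734 to 3.59) and 1.51 (0.961 to 2.46), intervals that hold 1. Emp1, an epithelial membrane protein, had 26 UMIs in 10 vehicle cells and 72 in 22 CA3 cells (2.86, 1.80 to 4.66), but 1.59 (0.92 to 2.78) in the tubule-poor cells. It was 5.13 (2.61 to 10.7) with more Ehd3 and 1.36 (0.712 to 2.76) with more Plvap. The homeobox gene Irx5 had 9 and 30 (3.44, 1.59 to 8.24), and the microtubule-binding protein Eml4 9 and 31 (3.55, 1.65 to 8.49), both with intervals that held 1 in the cells with more Plvap. The other 5 named genes had lower ratios in the tubule-poor cells than over all cells. Npnt had a ratio of 9.10 with 73.0% of its CA3 UMIs in 1 cell, and 1.80 (0.851 to 3.93) in the tubule-poor cells. Gstm2 went from 4.01 to 1.27 there, Hoxb9 from 4.13 to 0.97, Scd2 from 4.13 to 2.34 and Prss23 from 8.77 to 4.48.

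Nes and Ccnd1 ranked highest among the lower genes by the interval bound nearest 1, and Edn1, whose promoter is shown, ranked 12. Nes, the intermediate filament protein nestin (chr3:87971078-87980451, plus strand), had 52 UMIs in 15 vehicle cells (219 CPM) and 8 in 7 CA3 cells (34.8 CPM), a ratio of 0.159 (0.0651 to 0.337). The ratio was 0.159 in the tubule-poor cells, 0.195 in the cells with more Ehd3 and 0.215 in those with more Plvap. Within Ehd3-only and Plvap-only cells it was 0.295 (0.0529 to 1.12) and 0.537 (0.115 to 2.11), from few UMIs. Its highest cell had 9.13 UMIs per 10000 in vehicle and 2.94 in CA3. Ccnd1, cyclin D1, had 208 UMIs in 22 vehicle cells (877 CPM) and 66 in 13 CA3 cells (287 CPM), a ratio of 0.327 (0.244 to 0.434), and 0.179 in the tubule-poor cells. In the cells with more Ehd3 it was 0.345 (0.226 to 0.509), while in those with more Plvap the interval held 1 (0.737, 0.419 to 1.33). Ehd3-only cells gave 0.828 (0.477 to 1.42) and Plvap-only cells 0.209 (0.0514 to 0.633), and 1 vehicle cell held 45.7% of the vehicle UMIs. In CA3, 1 cell held 40.9% of the UMIs, and the tubule-poor cells held 26 of the 66. The value in the cells with more Plvap is therefore not free of barcodes with tubule RNA. Edn1 had 63 UMIs in 11 vehicle cells (266 CPM) and 22 in 7 CA3 cells (95.7 CPM), a ratio of 0.360 (0.211 to 0.594). It was 0.320 in the tubule-poor cells, 0.418 (0.157 to 0.952) with more Ehd3 and 0.143 (0.0593 to 0.314) with more Plvap. Ehd3-only and Plvap-only cells gave 0.223 (0.0834 to 0.511) and 0.325 (0.134 to 0.716). The vehicle Ehd3-only cells include cells 10 and 21 by depth, with 2 and 1 Ehd3 UMIs. The arterial list, which holds Edn1, summed to 104 and 120 UMIs per 10000 in them, against a vehicle median of 17.3. The Ehd3-only cells are therefore also called by their rule and are not all taken as glomerular.

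Ehd3 and Plat were also lower over all cells, with ratios near 1 within the cells with more Ehd3, a set that the Ehd3 count itself defines. Ehd3 had 614 vehicle UMIs (2588 CPM) and 278 CA3 UMIs (1209 CPM), a ratio of 0.467 (0.404 to 0.539), with 0.588 in the tubule-poor cells. Within the cells with more Ehd3 it was 0.922 (0.794 to 1.07). Plat had 562 and 270 UMIs (0.496, 0.427 to 0.574), 0.433 in the tubule-poor cells and 1.05 (0.894 to 1.22) within the cells with more Ehd3, while those with more Plvap gave 0.176 (0.106 to 0.285). That last value leaned on 1 barcode. Of the 61 vehicle Plat UMIs in cells with more Plvap, 53 were in vehicle cell 6 by depth, which had 1 Plvap and 40 Slc14a1 UMIs. The glomerular factor Gata5 had 0.43 (0.161 to 0.982) within the cells with more Ehd3 and 0.505 (0.174 to 1.32) within Ehd3-only cells, from 35 and 8 UMIs over all cells.

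The other 6 named lower genes have different roles. Rdx, radixin, which ties membrane proteins to actin, had 282 UMIs in 25 vehicle cells and 123 in 27 CA3 cells (0.450, 0.361 to 0.558), with 0.537 in the cells with more Ehd3 and 0.436 in those with more Plvap, but 0.812 (0.522 to 1.25) in Ehd3-only cells. Syne1, nesprin-1 of the nuclear envelope, had 210 and 94 (0.462, 0.358 to 0.592), and 0.635 in the tubule-poor cells. Jcad, a junction protein of endothelial cells that is known to act on the Hippo pathway, had 57 and 19 (0.344, 0.193 to 0.587), with 47.4% of the vehicle UMIs in 1 cell. Its ratio was 0.314 (0.120 to 0.697) with more Ehd3 and 0.525 (0.198 to 1.43) with more Plvap. Ehd3-only and Plvap-only cells gave 0.773 (0.194 to 2.83) and 0.939 (0.216 to 4.08), from few UMIs. Wbp4 (44 and 13), Dennd5a (40 and 11) and the volume-regulated channel subunit Lrrc8b (25 and 5) had ratios of 0.305, 0.284 and 0.206, and 0.35, 0.334 and 0.389 in the tubule-poor cells. All 12 lower genes stayed below 1 in the tubule-poor cells, where Lrrc8b had an interval that held 1 (0.111 to 1.13).

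**Figure D4:**
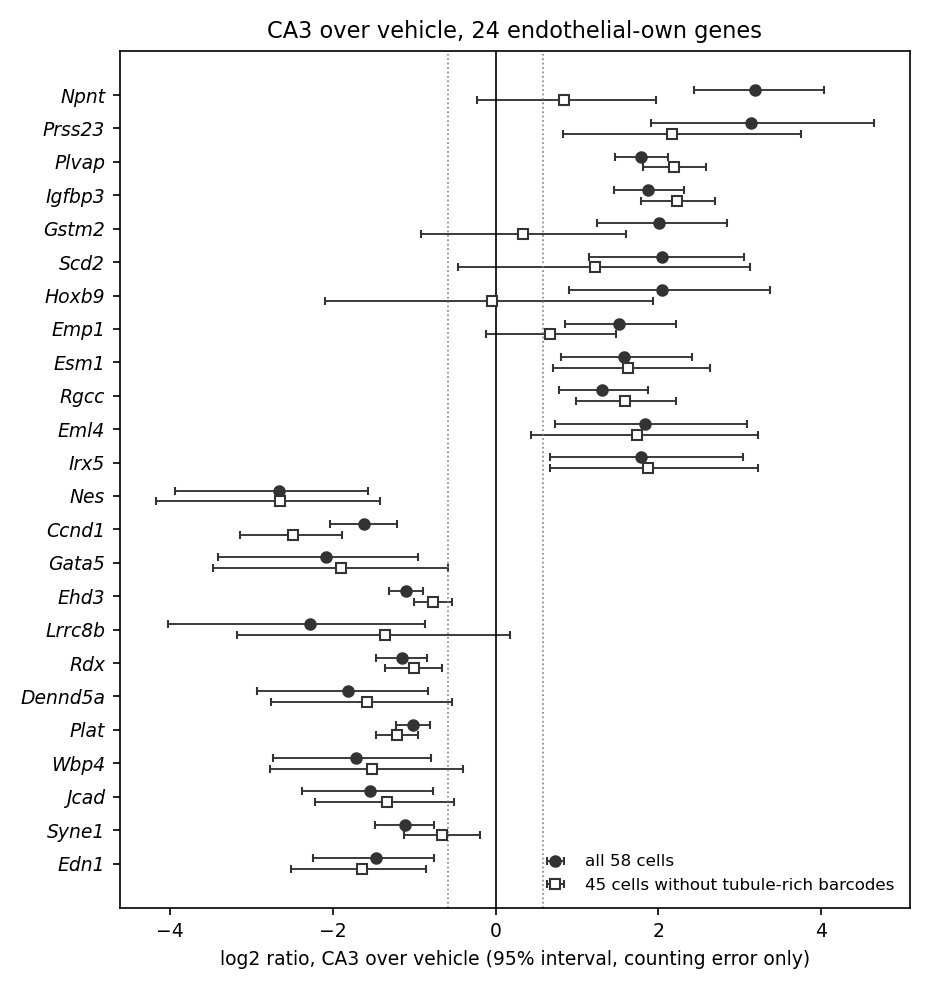
CPM ratio of CA3 over vehicle for the 24 named endothelial-own genes, over all endothelial cells and in the tubule-poor cells, with 95% counting intervals (horizontal axis logarithmic). Nes, Edn1 and Ccnd1 keep ratios of 0.159, 0.320 and 0.179 in the tubule-poor cells, whereas Npnt and Hoxb9 come to 1.80 and 0.97.

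Genes more abundant in other barcodes than in endothelial cells are given apart. Tmem213 (14.2), Calb1 (7.67), Wfdc2 (6.43), the metallothionein Mt1 (5.55) and Cystm1 (5.27) were higher in CA3 over all cells. In the tubule-poor cells their ratios were 1.17, 2.34, 1.56, 0.73 and 1.36, with intervals that all held 1. The calcium-binding protein S100g was the exception, with 4.91 over all cells and 6.81 (4.11 to 11.9) in the tubule-poor cells. A CA3 cell held 58.8% of its CA3 UMIs. Of the lower ones, the proximal tubule enzymes Miox and Rida had ratios of 0.255 and 0.269 over all cells and 1.64 and 2.14 in the tubule-poor cells. Gatm (0.299), Hao2 (0.214) and Golga4 (0.326) stayed below 1 there, at 0.389, 0.389 and 0.299, and the Hao2 interval held 1.

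Among the vessel lists, glomerular and arterial genes had the lowest medians. List members with at least 20 UMIs are counted, and over all 4648 such genes 15.4% were at least 1.5 times higher and 16.3% lower, with a median log2 ratio of -0.03. Of 10 glomerular genes, 7 were lower and none higher, with a median of -0.88. The median was -0.61 in the tubule-poor cells and -0.05 within the cells with more Ehd3, where 1 was lower and 2 were higher. It was -0.11 without the deepest 10% of cells, -0.34 without the deepest barcode of each library and -0.35 with cells weighted equally. Of 11 arterial genes, 5 were lower and none higher, with a median of -0.58. In the tubule-poor cells 8 were lower and 1 higher (-0.88, where 18.5% of all genes were lower). The medians within the cells with more Ehd3 and with more Plvap were -1.22 and -0.58. The arterial list reached 50 UMIs per 10000 or more in 3 vehicle cells and 1 CA3 cell. Vehicle cells 10 and 21 by depth, at 104 and 120, are among both the tubule-poor cells and those with more Ehd3. These sets therefore do not hold the mix of vessels fixed. Dll4, the Notch ligand of arteries and sprouting tips, had 43 and 21 UMIs (0.504, 0.284 to 0.868), Efnb2 166 and 93, and the elastic fibre protein Fbln5 34 and 19 (0.577, 0.311 to 1.04). Mgp, the matrix Gla protein, had 34 UMIs in 2 vehicle cells and 1 UMI in CA3.

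Capillary and medullary lists did not lean to 1 side. Of 10 peritubular genes, 3 were higher (Plvap, Igfbp3 and the natriuretic peptide clearance receptor Npr3, 4 and 24 UMIs) and 1 lower, the fatty acid transporter Cd36 (32 and 16 UMIs, 0.516, 0.264 to 0.969), with a median of -0.24. Igfbp5, another binding protein of insulin-like growth factors, had 1267 and 892, and the ratio was 0.965 (0.877 to 1.06) in the tubule-poor cells. In the vasa recta list of 6, Aqp1 was higher in summed UMIs, with 82 and 339 (4.27, 3.34 to 5.50), but was detected in 33.3% of vehicle and 16.1% of CA3 cells. CA3 cells 2, 5 and 7 by depth held 74, 140 and 123 of the CA3 UMIs, and cell 2 is rich in tubule RNA. Slc5a3, the myo-inositol transporter, was lower with 30 and 13. Slc14a1 had 53 and 61 UMIs (1.19, 0.809 to 1.75). Of 3 venous genes 1 was lower (Nr2f2, 0.516), and of the lymphatic list only Flt4 was measured, with 30 UMIs in each library.

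**Figure D5:**
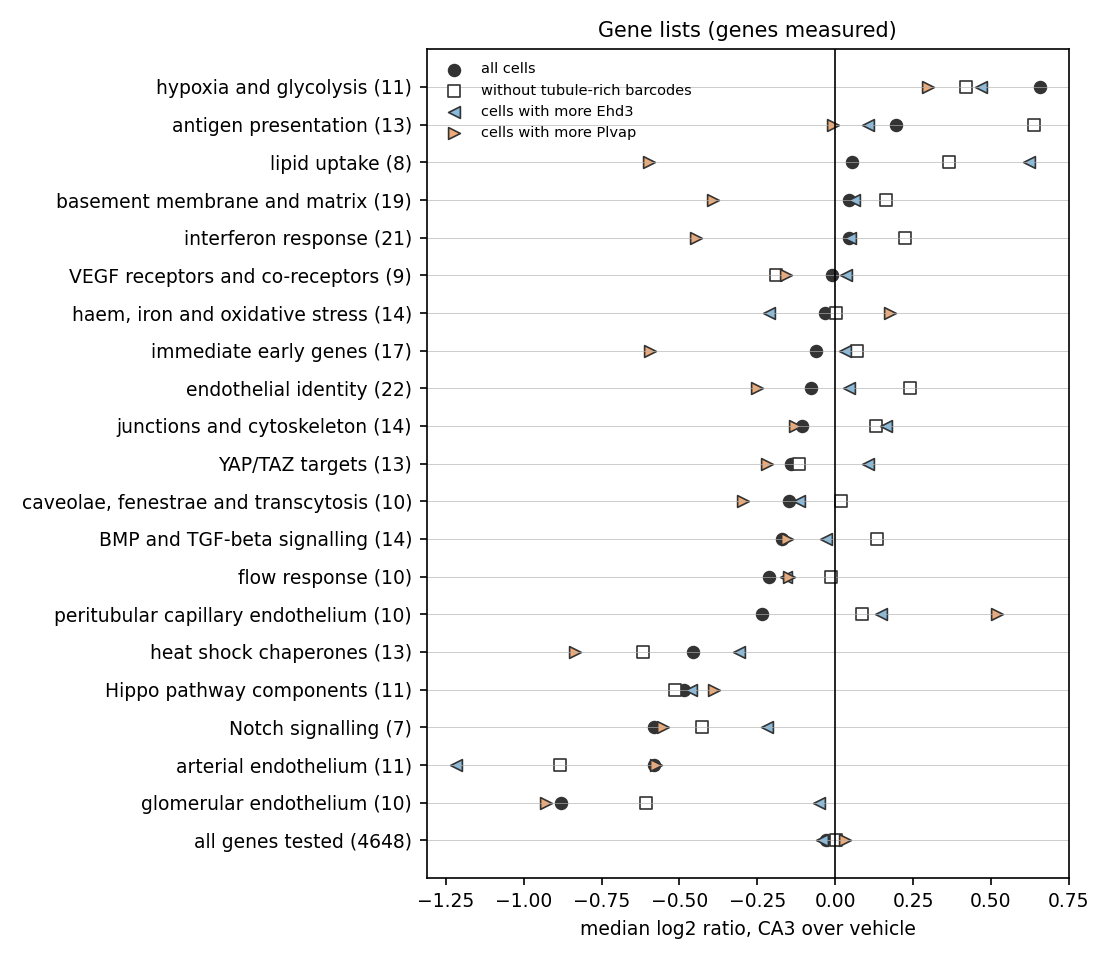
Median log2 ratio of CA3 over vehicle for gene lists with at least 7 measured genes, over all endothelial cells, in the tubule-poor cells and within cells with more Ehd3 or more Plvap (horizontal axis log2, vertical line at 0). Shorter lists and the marker lists of other cell types are not drawn. Of the lists drawn, the arterial, glomerular, heat shock, Hippo, Notch and flow response lists lie below 0 in all 4 sets of cells. The glomerular list comes to -0.05 in the cells with more Ehd3, and the flow response list to -0.01 in the tubule-poor cells.

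The VEGF receptor genes Kdr and Nrp1 were lower over all cells, but within 1.5 times in the cells with more Ehd3 and in those with more Plvap. Kdr had 635 vehicle and 380 CA3 UMIs (0.618, 0.542 to 0.702) but 0.972 within the cells with more Ehd3 and 0.860 within those with more Plvap. Nrp1, which binds VEGF and semaphorins, had 583 and 370 (0.655, 0.573 to 0.747), with 1.08 and 1.26 in the same subsets. Flt1, the decoy receptor of VEGF, had 421 and 405 (0.993, 0.864 to 1.14). Of the 9 VEGF genes 3 were lower and none higher, with a median of -0.01. Kdr, Flt1 and Ptprb are genes of the gate, so their values helped to choose the cells. In the angiopoietin and Tie list of 4, the phosphatase Ptprb was lower (0.665, 0.578 to 0.764) and Tek had 89 and 109 UMIs (1.26, 0.947 to 1.69). Notch genes gave 3 of 7 lower and none higher (median -0.58). BMP and TGF-beta genes gave 2 of 14 lower, the ligand Bmp6 (29 and 9 UMIs, 0.320, 0.133 to 0.695) and the inhibitory Smad6 (33 and 14, 0.438, 0.216 to 0.841).

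Flow-responsive genes were split. The flow-induced factors Klf2 and Klf4 had 441 and 391 UMIs (0.915, 0.797 to 1.05) and 265 and 178 (0.693, 0.570 to 0.841), and Klf4 came to 0.987 in the tubule-poor cells. Nos3, the endothelial nitric oxide synthase, had 28 and 14 (0.516, 0.251 to 1.01). Thbd, thrombomodulin, an anticoagulant receptor, was higher with 60 and 95 (1.63, 1.17 to 2.30). The list of 10 had 1 higher and 2 lower, with a median of -0.21, beside 15.4% higher and 16.3% lower over all genes. The same shares of all genes stand beside the counts of the lists that follow here. Of 14 junction genes 2 were lower, Cgnl1 (77 and 29) and Ctnnb1, beta-catenin (102 and 62, 0.627, 0.450 to 0.869). Of 10 genes of caveolae and fenestrae 1 was higher (Plvap) and 2 lower (Ehd3 and the caveolar coat protein Cavin2, 222 and 110 UMIs, 0.511, 0.403 to 0.646). The leukocyte adhesion molecule Vcam1 was the 1 higher of 5, with 26 and 59 UMIs and 88.5% of the vehicle UMIs in 1 cell. Coagulation genes gave 1 of 6 higher (Thbd) and 2 lower (Plat and F8).

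The targets of YAP1 and TAZ, the pathway that CA3 is known to inhibit, had as many higher as lower members. Among 13 measured of 24, 3 exceeded 1.5 times upward and 3 downward (median -0.14), and the tubule-poor cells gave 2 and 3 with -0.12. Ctgf, a secreted matricellular protein, had 21 and 6 UMIs (0.295, 0.0974 to 0.755), with 85.7% of the vehicle UMIs in 1 cell. Cyr61 had 37 and 22 (0.614, 0.345 to 1.07) and 0.818 in the tubule-poor cells. Amotl1, an angiomotin that binds YAP1, had 88 and 41 (0.481, 0.324 to 0.704), whereas the phosphatase Ptpn14 had 9 and 25 (2.87, 1.29 to 6.98) and was higher, as was Igfbp3. Of 11 Hippo pathway components 5 were lower and none higher, with a median of -0.48 over all cells and -0.51 in the tubule-poor cells. Wwtr1, which encodes TAZ, had 62 UMIs in 13 vehicle cells and 29 in 15 CA3 cells (0.483, 0.299 to 0.762), the kinase Taok1 72 and 41 (0.588, 0.390 to 0.874), the scaffold Sav1 36 and 20 and the adaptor Mob1a 26 and 14. Yap1 itself had 16 and 10 (0.645, 0.262 to 1.51), too few to separate the libraries.

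Heat shock chaperones had a median below 0 in CA3 in all 4 sets of cells. Of 13, 6 were lower and none higher, with a median of -0.46. The tubule-poor cells gave 8 lower (-0.62), the cells with more Ehd3 4 of 12 (-0.31, where 21.3% of all genes were lower) and those with more Plvap 8 of 12 (-0.84, where 16.7% were). Hspa1a, the inducible HSP70, had 528 UMIs in 24 vehicle cells and 288 in 19 CA3 cells (0.563, 0.486 to 0.651), Hspa1b 186 and 97 (0.538, 0.417 to 0.692), the co-chaperone Dnajb1 70 and 29 (0.428, 0.267 to 0.668) and Bag3 29 and 9 (0.320, 0.133 to 0.695). Immediate early genes, which also respond to cell isolation, gave 1 of 17 higher, the mRNA-decay factor Zfp36 (121 and 195), and 2 lower, Nr4a1 (32 and 12) and Ier3 (95 and 52), with a median of -0.06. In the tubule-poor cells none was higher and 4 were lower, and in the cells with more Plvap 1 of 15 was higher and 8 were lower (-0.59). With cells weighted equally the median was -0.31.

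Antigen presentation genes were higher or within 1.5 times over all cells. Of 13, 4 were higher and none lower, with a median of 0.20, and in the tubule-poor cells 7 were higher and none lower (0.64, where 17.6% of all genes were higher). The cells with more Ehd3 gave 3 higher and 1 lower of 9 (0.10), and those with more Plvap 2 higher and 1 lower of 10 (-0.01). Tapbp, the loading factor of MHC class I, had 30 and 53 UMIs (1.82, 1.14 to 2.96) and 2.04 in the tubule-poor cells. The MHC class II genes Cd74 (6 and 34), H2-Aa (5 and 18) and H2-Ab1 (8 and 20) had few UMIs, and 1 CA3 cell held 61.8% of the CA3 Cd74. Leukocyte markers summed to 7 vehicle and 12 CA3 UMIs in the same cells, and their part in this was not tested. Of 21 interferon-response genes 3 were higher (Ifit2, Gbp4 and Irf1) and 1 lower (Ifit3), with a median of 0.05. In the cells with more Plvap 4 were higher and 9 lower (-0.45, where 16.7% of all genes were lower and their median was 0.03).

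Hypoxia and glycolysis genes were higher over all cells, with 8 of 11 and none lower (0.66). In the tubule-poor cells 4 were higher and 1 lower (0.42), and the median was 0.03 with cells weighted equally and -0.47 with cells thinned to 2000 UMIs. Eno1 had 18 and 37 UMIs, Tpi1 39 and 69 with 50.7% of the CA3 UMIs in 1 cell, Pgk1 30 and 48 and Higd1a 20 and 36. In the tubule-poor cells Tpi1 came to 0.764 and Higd1a to 0.934. The haem, iron and oxidative stress list had 3 of 14 higher (Mt1, Gclc and Gclm) and 1 lower (Gpx1, glutathione peroxidase, 170 and 93), and Hmox1, the haem oxygenase induced by myoglobin, had 2 and 3 UMIs. Lipid uptake genes gave 2 of 8 higher (Fabp5, 22 and 41 UMIs, 1.92, 1.12 to 3.39, and Acsl5) and 1 lower (Cd36).

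Genes of matrix, cell cycle and cell state completed the lists. Of 19 basement membrane genes 2 were higher and 3 lower, among them Sparcl1 (59 and 22 UMIs, 0.385, 0.225 to 0.638), Nid2 (16 and 4) and the protease Adamts1 (108 and 58, 0.554, 0.396 to 0.770). Of 5 mesenchymal genes 3 were lower and none higher (median -1.06): Vim with 138 and 64 UMIs (0.479, 0.35 to 0.648), Zeb2 with 56 and 23 (0.424, 0.249 to 0.7) and Snai2 with 19 and 8. Only 3 of 18 genes of the S, G2 and M phases had 20 UMIs, and none passed 1.5 times, so no difference in cycling was detectable at this depth. Of 6 p53 targets 1 was higher and 1 lower. The identity list had none of 22 higher and 2 lower, Erg (22 and 4 UMIs, 0.188, 0.0470 to 0.553), the ETS factor of endothelial identity, with 63.6% of the vehicle UMIs in 1 cell, and Sox7 (23 and 12).

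Markers of other cell types differed between all cells and the tubule-poor cells. Of 12 proximal tubule genes 7 were lower and 1 higher (median -0.84), and in the tubule-poor cells none was lower and 3 were higher. Of 8 distal genes 5 were higher and 1 lower over all cells, with medians of 1.57 over all and -0.78 in the tubule-poor cells. Of 3 podocyte genes 1 was higher and 2 lower, led by Synpo (56 and 6 UMIs, with 76.8% of the vehicle UMIs in 1 cell). Of 3 mural genes only the kinase Mylk was lower (41 and 15), and the fibroblast gene Gsn had 13 and 21.

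The 5 reporter sequences of the reference (hrGFPIINLS, EYFP, tdimer2, MbmCerulean and EGFP) had few UMIs in endothelial cells, all of them in the CA3 library. Whether these sequences belong to the R26.FUCCI2aR allele was not tested, and their counts are not read as its cell-cycle reporter. All were at 0 in the 27 vehicle cells, which allows a share of up to 11.1% of cells with a UMI for each. In CA3, MbmCerulean had 8 UMIs in 4 of 31 cells (12.9%, 3.63 to 29.8) and EYFP 1 UMI. In barcodes rich in proximal tubule genes MbmCerulean was detected in 16.3% of vehicle and 25.9% of CA3 barcodes. The interval of the CA3 endothelial share holds the latter value. Of the 4 endothelial cells with MbmCerulean, 2 were among the tubule-poor ones.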

How the data were processed

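The authors deposited 1 table of raw UMI counts for each library, with 31058 features, 5 of them reporter sequences. Per the submitters' processing notes, Cell Ranger 3.0.1 and the mm10 build were used. How barcodes were called as cells is not given in the sources used here. Library totals were 19592239 and 17013222 UMIs, 200 of 1967 vehicle and 230 of 1724 CA3 barcodes failed the filter, and no column of counts was unmatched (0).

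UMIs were summed over the endothelial cells of a library and divided by their non-mitochondrial total. Ratios have exact conditional binomial intervals and shares exact Clopper-Pearson intervals (scipy 1.17.1, pandas 2.3.3, numpy 2.4.6, Python 3.11.15). A count of 0 was set to a floor of 3 UMIs, or 12.6 CPM in vehicle and 13.1 CPM in CA3. With 1 library per group no test was made. UMIs remove PCR copies, but cells of 1 library are not replicates.

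Named genes had at least 30 UMIs and, in the higher library, 50 CPM and detection in 10% of cells. They also needed a ratio of 1.5 with and without their 3 top cells in each library, and an interval without 1. They were ranked by the interval bound nearest 1, up to 12 endothelial-own and 6 other genes per direction. Ribosomal protein genes, mitochondrial genes and predicted models were left out. Up to 10 genes per direction were named for Ehd3-only and Plvap-only cells, and up to 4 per list with the largest absolute log2 ratio. Genes of the gate, of the vessel, VEGF, flow, YAP/TAZ and Hippo lists and other genes whose values were seen first could be added. Members and the 36 lists were chosen with earlier results of these data known. No doublet caller was run, and counts are given without the deepest cells. The code was tested on simulated counts. Coordinates came from GENCODE vM21 and promoters from RefSeq (GRCm38.p6). A gene that met the naming rule is not reported here.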

Additional observations from a re-analysis of the deposited data

How the results depend on the processing

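No paired analysis was possible because each group is 1 library with no replicate numbers to pair. Over the named genes, 570 of 719 recomputed log2 ratios stayed within counting error of the value reported, 140 moved and 9 reversed. Of the list medians 577 of 675 and of the ratios between Ehd3-only and Plvap-only cells 415 of 513 did so, with 98 and 85 moved, and 0 and 13 reversed.

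The 429 higher genes became 284 without the deepest 10% of cells, 89 with cells thinned to 2000 UMIs, and 716 or 155 with at least 20 or 60 UMIs. The 498 lower genes became 918 without the pericyte ceiling, 319 without cells with a leukocyte UMI, and 272, 83, 756 and 213 in the same order. Alternatives chosen after seeing the data gave 268 higher and 326 lower genes in the tubule-poor cells, 258 higher in cells with more Ehd3, 246 and 198 in cells with more Plvap, and 323 lower without the deepest barcode of each library. These sets test fewer cells and fewer genes.

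With other list genes in place of Ehd3 and Plvap, glomerular-type cells were 18.5% of vehicle and 16.1% of CA3 cells and peritubular-type cells 81.5% and 83.9%. By the gene with more UMIs, Plvap cells were 54.8% of CA3. The 99 genes of Ehd3-only cells became 173 by the gene with more UMIs, 171 with other list genes and 33 thinned, of which 67, 18 and 18 were among the 99. The 94 of Plvap-only cells became 117, 71 and 24, of which 44, 22 and 18 were among the 94.

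Reversed log2 ratios of CA3 over vehicle were found in thinned cells for Prss23 (-0.20), Hoxb9 (-0.20) and Dennd5a (0.22), in the tubule-poor cells for Hoxb9 (-0.039), Mt1 (-0.45), Miox (0.71) and Rida (1.10), and in cells with more Ehd3 for Plat (0.066). Between the cell types, the other list genes gave a log2 glomerular-type over peritubular-type of Lpl, vehicle, of -0.085, and also reversed in vehicle Ubn1 (-0.18), F8 (-0.76), S100a4 (0.61), Irx5 (1.90), Irx3 (0.82) and Calca (1.26). Thinning reversed Ubn1 (-0.70 in vehicle, -0.041 in CA3), Casp8 (-0.38 in vehicle), Emilin1 (-0.38 in vehicle) and Bad (-0.12 and -0.36). The cause was not tested. With 27 and 31 cells, genes under 30 UMIs give intervals too wide to separate most differences.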

Other observations

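Sost, the Wnt inhibitor sclerostin and a member of the glomerular list, had 16 UMIs in 4 vehicle cells and 0 in the 31 CA3 cells. The 2 alike vehicle barcodes held 6 of these UMIs each.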
